A study of Mus musculus with 15 samples.

Results

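The early response genes described here are 10 genes that many cells switch on within minutes of a growth signal or a stress: the FOS family members Fos, Fosb, Fosl1 and Fosl2, the JUN family members Jun, Junb and Jund, and the genes Egr1, Nr4a1 and Dusp1. They were taken by symbol from a table of 42807 gene symbols, and all 10 were found in it. All 10 also passed the filter on low counts that left 14461 genes for testing. The cells were C2C12, an established line of mouse muscle precursors that stop dividing and form multinucleated myotubes when serum is lowered. The cells had differentiated for 6 days and were then kept for 24 h in 1 of 5 conditions, with 3 RNA sequencing libraries each: non-treated, vehicle (0.1% DMSO), or 20, 100 or 500 µg/mL of Jakyak-gamcho-tang, abbreviated JGT. This herbal medicine is a hot-water extract of equal weights of peony root and licorice root, and the comparisons ask how myotubes respond to rising doses. The highest dose was set from a viability curve as the most that was tolerated, with some viability already lost. All 15 libraries come from this single cell line, and no group carries a genetic change.

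FOS and JUN proteins pair through leucine zippers to form AP-1, a transcription factor whose site was searched for here as TGANTCA, with any base at N. EGR1 is a zinc finger transcription factor, NR4A1 (Nur77) is an orphan nuclear receptor that acts on glucose metabolism genes in muscle, and DUSP1 is a phosphatase that switches off MAP kinases. The MAP kinases ERK, JNK and p38 drive the transcription of these genes through serum response factor, CREB and MEF2, and most of their mRNAs decay fast. A library made after 24 h of treatment therefore shows their standing level and not the first burst.

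Library totals, in expected counts, lay between 26012844 and 36854199. JGT 500 replicate 2 lay apart from its group on the second principal component (−25.7, against 4.65 and 8.94 for replicates 1 and 3), so calls and list counts at that dose that change without it are also given without it. The sample codes of the 6 control libraries form another series than those of the 9 JGT libraries. What the codes stand for is unknown, so JGT and code series cannot be told apart where JGT is set against a control, whereas all doses carry codes of 1 series. The titles give all 15 libraries the same batch label, and what that label covers is not stated. The JGT stock itself held DMSO, and the labels do not say whether lower doses were brought up to the DMSO level of the vehicle. Nothing in the labels says that replicate libraries stem from different culture dishes. The p-values therefore reflect only how far these libraries spread, which may be technical.

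Promoters of members were searched because 7 of the 10 genes moved in the same direction at the highest dose. Those of 8 members were taken from the RefSeq promoter table (GRCm38.p6), and the 250 bases before each start were scanned on both strands for 5 motifs. Egr1 and Fosl1 were not among the 8, so nothing is said here about sites in their promoters. Shown here are the promoters of 5 genes that fell at 500 µg/mL, written 5′ to 3′ along the strand of the gene. The stretches end at the transcription start given in the RefSeq table, except that those of Fosb and Dusp1 stop just before an annotated exon. Capitals mark every match to any of the motifs described after the sequences.
Fos, chr12:85473640-85473889, + strand: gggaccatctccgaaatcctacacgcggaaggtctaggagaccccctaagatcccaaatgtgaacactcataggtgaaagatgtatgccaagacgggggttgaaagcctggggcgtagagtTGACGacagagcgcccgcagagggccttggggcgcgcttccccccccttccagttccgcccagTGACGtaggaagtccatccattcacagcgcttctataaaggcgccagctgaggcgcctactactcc
Fosb, chr7:19310052-19310295, − strand: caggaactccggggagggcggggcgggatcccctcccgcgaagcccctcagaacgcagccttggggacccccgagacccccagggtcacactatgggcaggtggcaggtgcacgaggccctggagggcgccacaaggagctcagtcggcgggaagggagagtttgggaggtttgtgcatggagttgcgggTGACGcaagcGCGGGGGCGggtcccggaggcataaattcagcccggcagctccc
Nr4a1, chr15:101266596-101266845, + strand: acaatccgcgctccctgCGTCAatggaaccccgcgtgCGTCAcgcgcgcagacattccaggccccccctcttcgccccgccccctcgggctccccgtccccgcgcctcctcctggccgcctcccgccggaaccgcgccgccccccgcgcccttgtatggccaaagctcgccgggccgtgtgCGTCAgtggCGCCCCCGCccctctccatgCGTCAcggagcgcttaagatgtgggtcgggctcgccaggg
Dusp1, chr17:26508520-26508722, − strand: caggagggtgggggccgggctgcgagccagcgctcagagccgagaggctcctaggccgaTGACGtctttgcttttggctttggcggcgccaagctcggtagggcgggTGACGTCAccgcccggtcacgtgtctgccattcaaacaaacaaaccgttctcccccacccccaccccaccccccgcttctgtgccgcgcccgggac
Jun, chr4:95052223-95052472, − strand: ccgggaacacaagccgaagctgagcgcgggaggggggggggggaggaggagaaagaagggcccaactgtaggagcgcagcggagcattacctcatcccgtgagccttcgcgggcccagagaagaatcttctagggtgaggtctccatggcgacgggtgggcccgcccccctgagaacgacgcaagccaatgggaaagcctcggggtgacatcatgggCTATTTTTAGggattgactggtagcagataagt

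The letters TGACG, the core of the cAMP response element that CREB binds, stood in 5 of the 8 promoters: Fos, Fosb, Junb, Nr4a1 and Dusp1. Of all 32851 promoters in the table, 17.8% held them. In Fos the matches began 129 and 66 bases before the start, in Fosb 60 and in Junb 106. Nr4a1 had 4 matches, at −233, −213, −69 and −40, all read on the opposite strand. In Dusp1 a first match stood at −191, and 2 overlapping matches on opposite strands formed the palindrome TGACGTCA from −143 to −136. An EGR core site, written GCGNGGGCG, stood in 3 of the 8, Fosb, Fosl2 and Nr4a1, against 4.7% of all promoters. The windows of these genes held 68.8%, 64.4% and 74.4% GC, and the shares over all promoters were not matched for GC content. Jun held the only MEF2 site, CTATTTTTAG, from −33 to −24, and 2.92% of all promoters held such a site. No AP-1 site (TGANTCA, 6.75% of promoters) and no CArG box, the serum response factor site (1.47%), was found in these windows. The Fosl2 promoter is not printed because its window lies within an annotated exon. The Jund window, which held no match, ends at base 70697738 of chromosome 8. The annotated Jund gene starts only at 70698949, so this window does not adjoin it. The Nr4a1 and Dusp1 windows precede starts that lie inside the annotated spans of these genes. Those spans run from 101254269 to 101274795 on chromosome 15 and from 26505590 to 26562128 on chromosome 17. These matches describe letters in short windows, and nothing was measured on binding.

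Levels are given as CPM, a library's counts scaled to a fixed total with TMM factors between libraries, and called differences are those with a Benjamini-Hochberg adjusted p below 0.05 over all 14461 genes in edgeR's quasi-likelihood test. Levels of different genes were compared only after division by exon length, as CPM per kb. On that scale, in vehicle, Jund stood at 128 ± 5.25 CPM per kb (SD, n = 3), Junb at 113 ± 4.14 and Jun at 56.9 ± 1.52. Egr1 followed at 35.1 ± 2.47, Fosl2 at 14.95 ± 0.684, Dusp1 at 13.4 ± 0.515 and Nr4a1 at 7.44 ± 0.509. The lowest were Fosl1 at 4.48 ± 0.227, Fos at 3.80 ± 0.423 and Fosb at 0.705 ± 0.0466 CPM per kb. Fosb rested on 61 to 138 counts per library, Fos on 186 to 338 and Fosl1 on 230 to 399, while Jun, Junb, Jund, Fosl2 and Egr1 had at least 3078 in each. Junb shares bases with Prdx2, Dusp1 with Ergic1 and Fosl1 with Ccdc85b, all on the opposite strand. Reads there could be shared if counting ignored strand, which the labels do not state. Per library, Prdx2 had 6800 to 9836 counts against 5610 to 9090 for Junb. Ergic1 had 3144 to 5275 against 950 to 1533 for Dusp1, and Ccdc85b 66 to 158 against 230 to 399 for Fosl1. The span of Dusp1 also holds a processed pseudogene and a sense intronic gene on its own strand, which a strand setting could not separate.

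**Figure D1:**
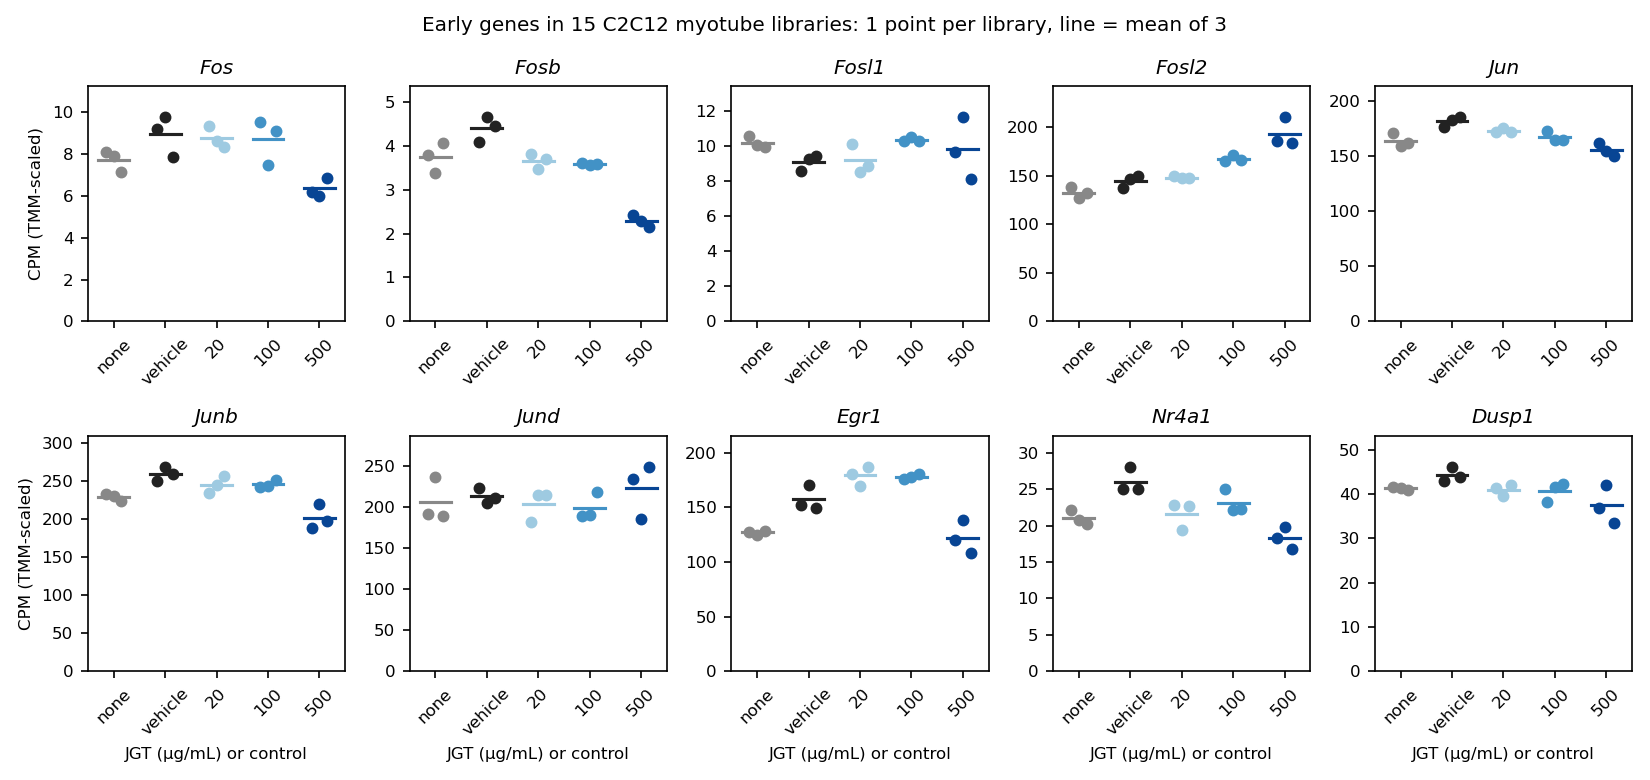
Level of each of the 10 genes in CPM (vertical axes, each from 0) in the 15 libraries, grouped by control (none is non-treated) or JGT dose; a point is 1 library and a line the mean of 3. Fosl2 is highest at 500 µg/mL, at 183 to 211 CPM, while Fos, Fosb, Jun, Junb, Egr1, Nr4a1 and Dusp1 have their lowest mean there.

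At 500 µg/mL, 7 of the 10 genes fell against vehicle, 1 rose and 2 were not called. Those that fell were Fosb, Nr4a1, Fos, Egr1, Junb, Dusp1 and Jun, with log2 fold changes from −0.94 to −0.22. Fosl2 rose, and Fosl1 and Jund were not called. Of all genes tested, 33.3% were called in this comparison, 16.5% higher and 16.8% lower, so 8 called members of 10 lay above the background share and the 7 that fell above the share of 16.8%. In each of the 8, the 3 JGT 500 libraries did not overlap the 3 vehicle libraries, which was so for 40.1% of all genes. The median log2 fold change of the 10 was −0.30, against 0.01 over all genes tested.

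Among the FOS family, Fosb showed the largest change. Its 3 vehicle libraries held 4.09, 4.67 and 4.45 CPM and its 3 JGT 500 libraries 2.44, 2.29 and 2.15. Every library at the highest dose lay below every other library of the series, and the lowest of these others was a non-treated one at 3.39 CPM. The change was −0.94 ± 0.109 on the log2 scale (SE), or 0.522 times vehicle, with an adjusted p of 1.2e-06. Fosb encodes a long form and a short form, ΔFosB, which gene-level counts do not separate. Fos, the founding member, held 9.20, 9.80 and 7.85 CPM in vehicle and 6.21, 6.01 and 6.88 at 500 µg/mL. It fell by 0.49 on the log2 scale (SE 0.104, adjusted p = 0.00102), and no library of another group lay as low, the lowest being 7.16 CPM in a non-treated library.

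Fosl2, which encodes FRA2, moved the opposite way. It stood at 137, 147 and 150 CPM in vehicle and at 186, 211 and 183 at 500 µg/mL. The highest of these values belonged to JGT 500 replicate 2. Fosl2 rose 1.34-fold (log2 0.42 ± 0.0481, SE, adjusted p = 1.1e-06), and 0.34 without that library (adjusted p = 4.59e-08). Fosl1, which encodes FRA1, spread widely at 500 µg/mL, with 9.68, 11.7 and 8.11 CPM against 8.59, 9.26 and 9.47 in vehicle. Its groups overlapped, and its change of 0.12 had a 95% interval from −0.09 to 0.33 (adjusted p = 0.401). Without JGT 500 replicate 2 the fitted change was −0.04 (adjusted p = 0.778), so its sign rested on that library.

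No member of the JUN family changed as much in proportion as Fosb, Fos or Fosl2, though Junb and Jun changed more than Fosl1. Junb, an AP-1 partner that often limits the activity of Jun, held 250, 269 and 260 CPM in vehicle and 188, 220 and 198 at 500 µg/mL. It fell by 0.36 (SE 0.0482, adjusted p = 7.27e-06), and no JGT 500 library reached the lowest vehicle library. Jun held 176, 182 and 186 CPM in vehicle against 162, 154 and 150, a fall of 0.22 (SE 0.0384, adjusted p = 0.000155). Jund, the member that is less dependent on stimulation, ranged from 185 to 249.2 CPM at 500 µg/mL, a span that covers its vehicle range of 205 to 223. Its change of 0.06 had a 95% interval from −0.21 to 0.33 (adjusted p = 0.725). Jun overlaps the antisense gene Junos, and Jund the antisense gene Gm11175, whose own counts were at most 18 and 3 per library against at least 4260 for Jun and 5130 for Jund.

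Egr1 held 152, 170 and 150 CPM in vehicle and 120, 138 and 109 at 500 µg/mL, where JGT 500 replicate 2 was the highest. It fell by 0.36 (SE 0.0687, adjusted p = 0.000721), and by 0.47 without that library (adjusted p = 1.03e-07). Nr4a1 held 25.0, 28.2 and 25.1 CPM in vehicle and 18.3, 19.8 and 16.8 at 500 µg/mL. It fell to 0.703 times vehicle (log2 −0.51 ± 0.0744, SE, adjusted p = 2.35e-05). Dusp1 held 43.0, 46.2 and 43.8 CPM in vehicle and 36.9, 42.1 and 33.5 at 500 µg/mL, the groups just clear of each other. It fell by 0.24 (SE 0.0619, adjusted p = 0.00574). Leaving out any 1 of the 6 libraries of this comparison left 8 members called each time.

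**Figure D2:**
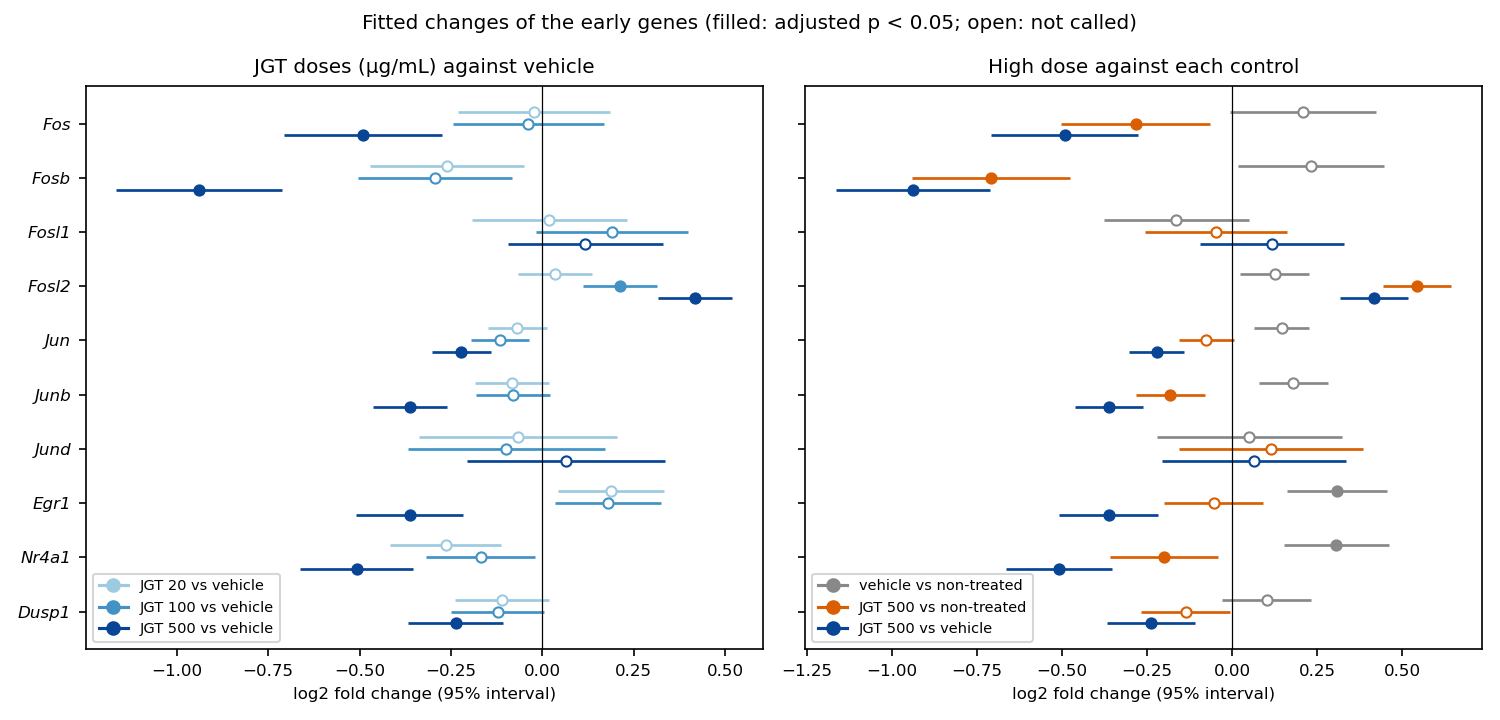
Fitted log2 fold changes (horizontal axis) with 95% intervals for the 10 genes: left, the 3 JGT doses against vehicle; right, vehicle against non-treated and JGT 500 µg/mL against each control, with filled points for called genes and open points for those not called. Fosb lies furthest left at 500 µg/mL (−0.94) and Fosl2 furthest right (0.42), and Egr1 lies at −0.36 against vehicle but −0.05 against non-treated.

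Vehicle itself was not at the level of non-treated myotubes. Egr1 rose 1.24-fold in vehicle over non-treated (log2 0.31 ± 0.0688, SE, adjusted p = 0.0393) and Nr4a1 1.24-fold (0.31 ± 0.0740, adjusted p = 0.0451). The other 8 were not called. Of all genes, 1.31% were called, 0.553% higher and 0.754% lower. Non-treated Egr1 lay at 128, 125 and 128 CPM and non-treated Nr4a1 at 22.1, 20.8 and 20.3, all below every vehicle library. In 7 of the 10 genes the groups did not overlap, as in 26.8% of all genes. The fitted change was above 0 for 9 of the 10 genes, Fosl1 being the exception at −0.16 (Jund was at −0.01 without non-treated replicate 3), and the median was 0.16 against 0.0025 over all genes. Jun (0.15, adjusted p = 0.063) and Junb (0.18, adjusted p = 0.0657) lay close to the threshold and were called by DESeq2. The 2 calls are not firm: without any 1 of the 6 libraries, none of the 10 genes was called, with adjusted p-values from 0.0734 to 0.148 for Egr1 and from 0.0813 to 0.195 for Nr4a1.

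The choice of control therefore changed the counts at 500 µg/mL. Against non-treated myotubes, 4 members were lower, 1 was higher and 5 were not called, with 31.8% of all genes called. Fosb (log2 −0.71 ± 0.111, SE, adjusted p = 4.86e-05) and Junb (−0.18 ± 0.0482, adjusted p = 0.00675) fell, and Fos (−0.28, adjusted p = 0.0457) and Nr4a1 (−0.20, adjusted p = 0.0489) fell with p-values near the threshold. Fosl2 rose 1.46-fold (0.54 ± 0.0483, adjusted p = 2.31e-08). Egr1, at 122 ± 15.1 CPM (SD, n = 3) at 500 µg/mL and 127 ± 1.79 in non-treated myotubes, was not called (−0.05, 95% interval −0.20 to 0.09, adjusted p = 0.595). Jun (−0.08, adjusted p = 0.146) and Dusp1 (−0.14, adjusted p = 0.105) were not called either. These comparisons and those with vehicle share the JGT 500 libraries, so they are not independent of each other.

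At 20 µg/mL, edgeR's quasi-likelihood test called none of the 10 genes against vehicle, as did DESeq2 and limma-voom, where 0.325% of all genes were called by edgeR. At an unadjusted p under 0.05 in edgeR's fit there were 3 genes: Nr4a1 (log2 −0.26, adjusted p = 0.146), Egr1 (0.19, adjusted p = 0.342) and Fosb (−0.26, adjusted p = 0.36). When edgeR fitted only the 2 groups, Nr4a1 was called (−0.26, adjusted p = 0.0262). Egr1 held 181, 169.7 and 187 CPM at this dose, and the lowest of these lay just below the highest vehicle library, at 170.1. Nr4a1, at 22.8, 19.5 and 22.7 CPM, lay below every vehicle library. The groups did not overlap in 4 of the 10 genes, as in 20.9% of all genes. Against non-treated myotubes, Egr1 was the only member called at 20 µg/mL (0.50 ± 0.0685, SE, adjusted p = 0.000753), where 3.11% of genes were.

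At 100 µg/mL, Fosl2 was the only member called against vehicle, with 4.31% of all genes called, 2.09% higher and 2.22% lower. It stood at 165, 172 and 167 CPM, above every vehicle and every JGT 20 library, and rose 1.16-fold (log2 0.21 ± 0.0481, SE, adjusted p = 0.0124). That call was lost without vehicle replicate 1 (0.17, adjusted p = 0.0932) or JGT 100 replicate 2 (0.19, adjusted p = 0.0738). When edgeR fitted only the 2 groups, Egr1 (0.18, adjusted p = 0.00403) and Jun (−0.12, adjusted p = 0.0197) were called too. Egr1 stood at 176, 178 and 181 CPM, above every vehicle library, without being called in the fit of all libraries (0.18, 95% interval 0.03 to 0.32, adjusted p = 0.186). Fosb held 3.60, 3.57 and 3.59 CPM, all below vehicle (−0.29, adjusted p = 0.116). The groups did not overlap in 6 members, as in 26.3% of all genes. Against non-treated myotubes, Egr1 (0.49, adjusted p = 0.000211) and Fosl2 (0.34, adjusted p = 8.17e-05) were higher, with 9.13% of genes called.

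For the members that fell against vehicle at 500 µg/mL, most of the fitted change between doses lay between 100 and 500 µg/mL. Fosl2 instead rose by similar amounts in the lower and the upper step (log2 0.18 and 0.21). From 20 to 100 µg/mL no member was called by edgeR's test, DESeq2 or limma-voom, where edgeR called 0.429% of genes, 0.297% higher and 0.131% lower. At an unadjusted p under 0.05 in edgeR's fit there was 1, Fosl2 (log2 0.18, adjusted p = 0.131). Fosl2 was called in this step when edgeR fitted only the 2 groups (adjusted p = 0.00497) or used no filter on low counts (adjusted p = 0.0481). From 100 to 500 µg/mL, Egr1 (−0.54 ± 0.0684, SE, adjusted p = 3.16e-05), Fosb (−0.64 ± 0.109, adjusted p = 0.000234), Junb (−0.28 ± 0.0481, adjusted p = 0.00027), Nr4a1 (−0.34, adjusted p = 0.00269) and Fos (−0.45, adjusted p = 0.00351) fell. Fosl2 rose by a further 0.21 (adjusted p = 0.00449), a call lost when only the 2 groups were fitted (adjusted p = 0.0513), and 4 members were not called, against 19.7% of all genes called, 9.05% higher and 10.7% lower. The groups did not overlap in 7 members, as in 29.5% of all genes. Without JGT 500 replicate 2, Fosl1 (−0.23, adjusted p = 0.048), Jun (−0.10, adjusted p = 0.0393) and Dusp1 (−0.21, adjusted p = 0.00221) were also lower, which left Jund alone without a call.

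Between 20 and 500 µg/mL, 6 members fell, 1 rose and 3 were not called, with 23.3% of all genes called. The groups did not overlap in 6 members, as in 32.5% of all genes. Egr1 fell to 0.683 times its level at 20 µg/mL (log2 −0.55 ± 0.0685, SE, adjusted p = 1.78e-05). Fosb (−0.68), Fos (−0.47), Junb (−0.28), Nr4a1 (−0.24, adjusted p = 0.0229) and Jun (−0.15) fell too, and Fosl2 rose 1.31-fold (0.38 ± 0.0480, adjusted p = 4.28e-06). The call of Nr4a1, whose groups overlapped, was lost without JGT 500 replicate 1 (adjusted p = 0.0606) or 3 (0.105) and without JGT 20 replicate 1 (0.105) or 3 (0.0852), and when only the 2 groups were fitted (0.0873). Dusp1 was not called (−0.13, adjusted p = 0.155) but was without JGT 500 replicate 2 (−0.22, adjusted p = 0.00141).

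Over all 5 groups together, 7 of the 10 genes differed in an F test of the same fit, where 30.1% of genes did. They were Fosl2 (adjusted p = 1.61e-07), Egr1 (1.09e-05), Fosb (2.04e-05), Junb (7.23e-05), Nr4a1 (0.000329), Jun (0.00169) and Fos (0.00392). Dusp1 (0.0638), Fosl1 (0.382) and Jund (0.779) were not called. The order of the group means differed between the genes. For Egr1 it ran from 179 ± 8.94 CPM at 20 µg/mL and 178 ± 2.57 at 100 µg/mL, which did not differ beyond their spread, through 157 ± 11.1 in vehicle to 127 ± 1.79 in non-treated and 122 ± 15.1 at 500 µg/mL, which again overlapped (SD, n = 3). For Fosl2 it rose from 133 ± 5.56 CPM in non-treated through 145 ± 6.62 in vehicle, 148 ± 1.33 at 20 µg/mL and 168 ± 3.43 at 100 µg/mL to 193 ± 15.3 at 500 µg/mL. Vehicle and 20 µg/mL were neighbours that did not differ beyond their spread. Fosb, Fos, Jun, Junb, Nr4a1 and Dusp1 had their highest mean in vehicle and their lowest at 500 µg/mL.

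Over the 15 libraries, Fosb correlated with Nr4a1 at a Pearson r of 0.83, with Junb at 0.83 and with Fosl2 at −0.76 on log2 CPM. These are descriptions across libraries that share their groups. Fosl2 had the largest F of the members, and of 10436 other genes with a mean of at least 5 CPM, those most like it over the 15 libraries were Cpne2 (r = 0.98), Aldh2 (0.98), Emb (0.97), Hmox1 (0.96) and Tmem182 (0.96). Hmox1, which encodes the heme-degrading heme oxygenase, went from 52.1 ± 0.0749 CPM in vehicle to 87.2 ± 10.3 at 500 µg/mL, and Aldh2, the mitochondrial aldehyde dehydrogenase, from 172 ± 7.50 to 249.4 ± 23.8 (SD, n = 3).

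Fosl2 moved against Fos and Fosb, and the mRNA make-up of the FOS family was followed across groups. As a share of the family's summed CPM per kb, Fosl2 made up 62.5 ± 1.34% in vehicle, 63.4 ± 1.43% at 20 µg/mL, 64.9 ± 1.43% at 100 µg/mL and 71.6 ± 0.603% at 500 µg/mL (SD, n = 3), and 60.6 ± 0.797% in non-treated myotubes. The 3 libraries at 500 µg/mL, from 71.1% to 72.3%, lay above all 12 others. The share of Fos went from 15.9 ± 1.82% in vehicle to 9.78 ± 1.39%, and that of Fosb from 2.94 ± 0.0889% to 1.32 ± 0.123%. The summed FOS level was 23.9 ± 0.875 CPM per kb in vehicle and 27.9 ± 2.27 at 500 µg/mL. The summed JUN level was 297 ± 0.274 and 270 ± 13.8 CPM per kb in the same groups. Within the JUN family the share of Junb was 37.9 ± 1.40% in vehicle and 32.6 ± 4.22% at 500 µg/mL, where JGT 500 replicate 2, at 37.5%, lay within the vehicle range of 36.5% to 39.3% and the other 2 below it. These shares are of mRNA, come with no test, and depend on the length used: with the longest transcript of each gene, Fosl2 made up 68.3% of the family in vehicle and 76.9% at 500 µg/mL.

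**Figure D3:**
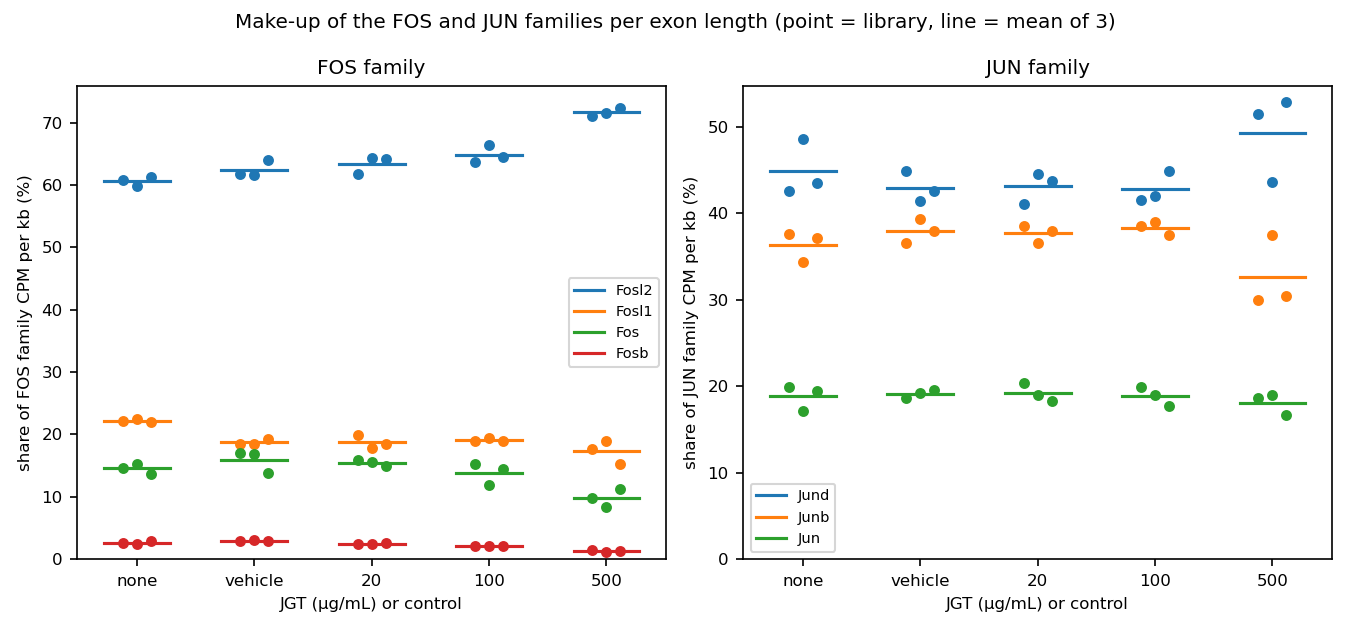
Share of each member in the summed CPM per kb of exon of its family (vertical axes in percent, from 0), FOS family left and JUN family right, by control or JGT dose; a point is 1 library and a line the mean of 3. The 3 Fosl2 points at 500 µg/mL lie at 71.1% to 72.3%, above those of all other groups, and the Jund and Junb points at that dose spread more widely than elsewhere.

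Other genes of the early response were taken from lists chosen with earlier results of these data known. Their counts are to be read against all genes tested at 500 µg/mL against vehicle, of which 16.5% rose and 16.8% fell. Of 21 measured transcription factor genes of this class, 11 fell, 2 rose and 8 were not called at 500 µg/mL against vehicle (median log2 −0.15). Klf10, a TGF-beta-inducible repressor (−0.48, adjusted p = 5.39e-07), Srf, the serum response factor itself (−0.35, adjusted p = 3.67e-06), and the EGR1 relative Egr2 (−0.65, adjusted p = 0.000231) fell. The 2 that rose were the small MAF gene Maff (0.46, adjusted p = 3.98e-05) and Cebpb (0.73, adjusted p = 0.0245). Of 26 other early response genes, 8 fell, 5 rose and 13 were not called (median −0.05), so the share that rose lay near that of all genes. Ctgf and Cyr61, matricellular genes (−1.16 and −0.59), the EGF receptor ligand gene Hbegf (−0.75) and the stress gene Gadd45b (−0.52) had the smallest p-values, the largest adjusted p being 3.71e-06. The 5 that rose were Nfkbiz (0.46), Rhob (0.26), Phlda1 (0.43), Plk2 (0.12) and Ptgs2 (0.18). Without JGT 500 replicate 2, 12 of these 26 fell and 5 rose, and 11 and 2 of the transcription factors.

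For the genes upstream of the members and their partners, the background was again 33.3% of all genes called. Of 16 kinase genes of the ERK, JNK and p38 cascades, Map2k1 rose (log2 0.25, adjusted p = 5.95e-05), Rps6ka3 (−0.18, adjusted p = 0.00052) and Map2k4 (−0.19, adjusted p = 0.000644) fell and 13 were not called, fewer calls in proportion than over all genes. Of 11 transcription factors that act on these promoters, Elk3 (−0.34), Mef2a (−0.14) and Mef2d (−0.10) fell, Elk4 (0.15) and Mkl2 (0.14) rose and 6 were not called, somewhat more calls in proportion than over all genes. Of 10 other MAP kinase phosphatase genes, Dusp7 (−0.26), Dusp4 (−0.33) and Dusp2 (−0.66) fell, Dusp16 (0.19) and Dusp10 (0.14) rose and 5 were not called. Of 9 further leucine zipper partners of AP-1, Mafg rose (0.25, adjusted p = 0.000558), Atf7 (−0.22) and Ddit3 (−0.20) fell and 6 were not called. Without JGT 500 replicate 2, 2 kinase genes rose and 3 fell, 2 upstream factors rose and 4 fell, 1 phosphatase gene rose and 4 fell, and 2 leucine zipper partners rose and 2 fell. These lists hold mRNA levels only, and kinase activity was not measured.

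Genes known as AP-1 targets were called in either direction at 500 µg/mL. Of 13 tested, 5 fell, 4 rose and 4 were not called, with a median of −0.02, against 16.8% lower and 16.5% higher over all genes. Without JGT 500 replicate 2, 6 fell and 4 rose. The cyclin gene Ccnd1 (log2 −0.99 ± 0.0606, SE, adjusted p = 9.79e-11), the hyaluronan receptor gene Cd44 (−0.60, adjusted p = 1.13e-10), the urokinase gene Plau (−0.58) and Timp1 (−0.28) were among those that fell. The osteopontin gene Spp1 (0.42 ± 0.0387, adjusted p = 4.21e-08), the collagenase gene Mmp13 (1.60 ± 0.215, from 0.719 to 2.18 CPM), the chemokine gene Ccl2 (0.92) and Hmga1 (0.24) rose. Of 7 measured targets of EGR and NR4A factors, the muscle enolase gene Eno3 (−0.20, adjusted p = 0.000291) and the glucose transporter gene Slc2a4 (−0.62, from 1.36 to 0.881 CPM, adjusted p = 0.0197) fell, and 5 were not called, Pgam2 (−0.16, adjusted p = 0.0877) and Pygm (−0.07, adjusted p = 0.156) among them. That is 2 calls in 7 against 33.3% over all genes, a share near the background.

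**Figure D4:**
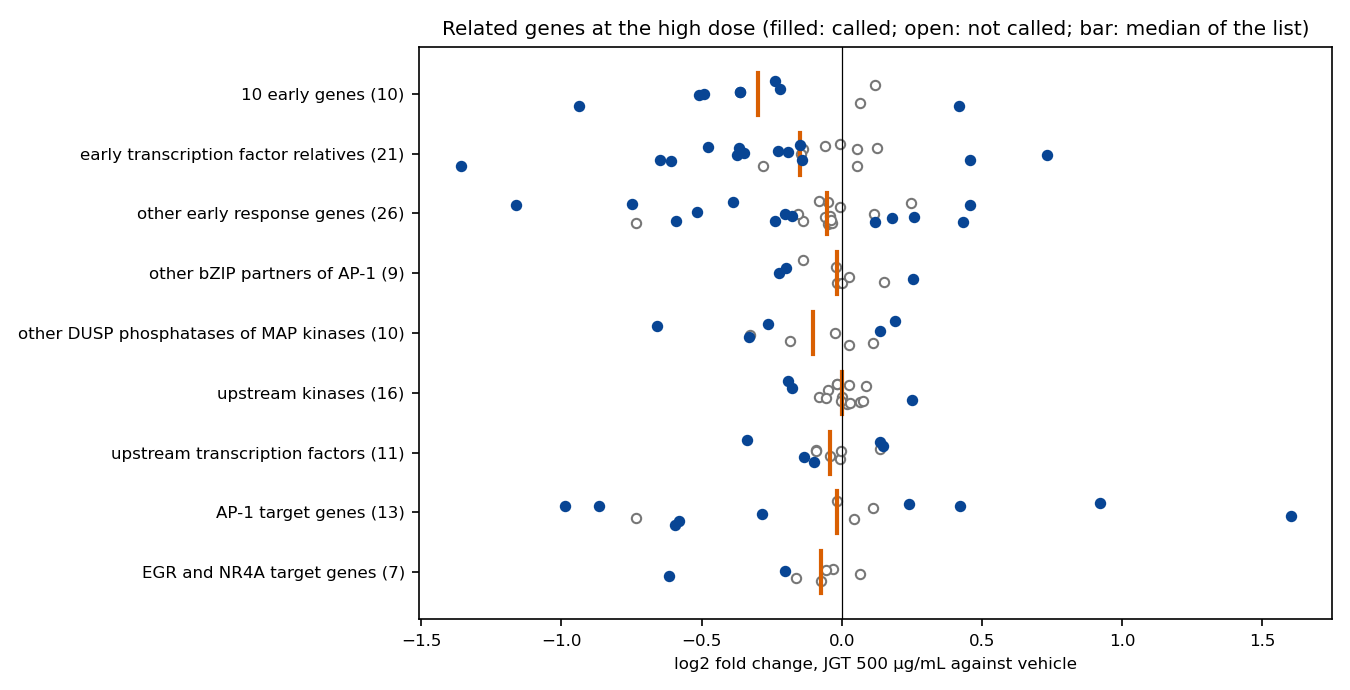
Log2 fold changes at JGT 500 µg/mL against vehicle (horizontal axis) for the 10 early genes and 8 lists of related genes (rows, with the number of genes measured); filled points are called, open points are not, and a bar marks the median of each row. The 10 early genes have a median of −0.30, and the kinase genes lie between −0.19 and 0.25.

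Markers of cell types were followed because a myotube culture also holds unfused cells. In bulk RNA, fewer cells of a type and less RNA per cell cannot be told apart. All 9 measured myotube markers were present, with a summed level of 11404 to 11910 CPM in vehicle and 10552 to 10895 at 500 µg/mL, where 3 rose and 4 fell. The 8 markers of dividing cells all fell, their sum going from 317 to 326 CPM in vehicle to 130 to 133 CPM at 500 µg/mL, and it lay at 390.1 to 399 CPM in non-treated myotubes. Of 4 measured smooth muscle and myofibroblast markers all fell, and the sum of the 5 listed went from 3229 to 3356 CPM to 1971 to 2040. Of 9 myoblast and reserve cell markers, 4 fell and 2 rose, with sums of 441 to 450 CPM in vehicle and 392 to 412 at 500 µg/mL, and 5 fell and 3 rose without JGT 500 replicate 2. The adipocyte markers Cebpa, Lpl and Pparg rose (sum of the 6 listed, 48.3 to 49.9 CPM in vehicle and 104 to 115 at 500 µg/mL), while Adipoq, Plin1 and Fabp4 had at most 5 counts in any library. Macrophage markers summed to at most 2.35 CPM, and Ptprc had at most 1 count per library. The part of these shifts in the changes of the early genes was not tested.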

How the data were processed

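Per the labels, directional mRNA libraries were read as 100 bp pairs. The deposited values are the authors' expected counts, unnormalized, with gene symbols as rows and libraries as columns. Per the submitters' processing notes the tools were RSEM 1.3.3, STAR 2.7.3a, Trim Galore 0.6.5 and FastQC 0.11.9, with GRCm38 (mm10); annotation and strand setting are unknown here. Counts were rounded (9.34% were not whole, tolerance 0.005). In edgeR 4.0.16 (R 4.3.3), filterByExpr and TMM factors (0.988 to 1.02) preceded 1 robust quasi-likelihood fit of all 15 libraries with a mean per group (10 residual degrees of freedom). Standard errors and 95% intervals come from its F statistics. DESeq2 1.42.0, limma 3.58.1 (voom), other normalizations, filters, controls and left-out libraries were alternatives. The fit was tested only on counts simulated from its own estimates of spread, with no outlying library or code series difference. Library pairs within groups differed by a mean chi-square per gene of 2.01 to 35.7, so none was merged. JGT 500 pairs lay at 8.50 to 35.7 and pairs of the other groups at 9.51 or less. The fit nevertheless shared its estimate of spread for a gene between all groups. From each list the 4 genes with the smallest p at 500 µg/mL are named. Further called genes, where 5 or fewer were called in a direction, were chosen after their values were seen. A listed gene that was called is not reported here by name. Members and lists were chosen with earlier results of these data known. Exon lengths and overlaps are from GENCODE M21 (GRCm38), promoters from RefSeq (GRCm38.p6).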

Additional observations from a re-analysis of the deposited data

How the results depend on the processing

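Of 970 member values under alternatives, 924 kept their side of the threshold, 19 gained a call and 27 lost one. Of the 924, 37 had the opposite sign, all of members not called in that comparison, and 887 kept their direction too. Members called, vehicle against non-treated, were 2, and 4 with DESeq2, 1 with limma-voom, 4 with only the groups compared, 0 with a replicate block and 0 to 0 without single libraries; over all genes 189 became 325 with DESeq2, 1031 with only the groups compared and 36 to 88 without single libraries. JGT 20 against vehicle gave 0 members, and 1 with only the groups compared and 1 with non-treated as the control; over all genes 47 became 103 with DESeq2, 73 with no filter, 330 with only the groups compared, 450 against non-treated and 18 to 36 without single libraries. JGT 100 against vehicle gave 1 member, and 3 with only the groups compared, 2 against non-treated and 0 to 1 without single libraries; over all genes 623 became 1369, 1320 and 315 to 409. JGT 500 against vehicle gave 8 members, and 5 against non-treated and 8 to 8 without single libraries (3704 to 6323 of all genes, against 4815). JGT 100 against JGT 20 gave 0 members, and 1 with no filter and 1 with only the groups compared; over all genes 62 became 191 with only the groups compared, 22 with only the JGT libraries and 19 to 41 without single libraries. JGT 500 against JGT 20 gave 7 members, 6 to 8 without single libraries, 6 with only the groups compared (Nr4a1 lost, adjusted p = 0.0873), and 3369 genes, 1982 with only the groups compared and 2532 to 5165 without single libraries, the highest without JGT 500 replicate 2. JGT 500 against JGT 100 gave 6 members, 6 to 9 without single libraries, 5 with only the groups compared (Fosl2 lost, adjusted p = 0.0513), and 2853 genes, 1313 with only the groups compared and 1880 to 4989 without single libraries, again highest without JGT 500 replicate 2. The test over 5 groups called 7 to 8 members and 3383 to 6363 genes without single libraries. With the longest transcript as the length, the Fosl2 share was 66.7% (non-treated), 68.3% (vehicle), 69.3% (20 µg/mL), 70.7% (100 µg/mL) and 76.9% (500 µg/mL). The causes were not tested.

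Deviations of same-numbered libraries from their group means correlated at −0.21 to 0.12, and at 0.07, 0.11 and 0.12 between JGT 500 and JGT 100. Such weak correlations cannot exclude that same-numbered libraries share a culture. The JGT sample codes do share a number between libraries of equal replicate number, and its meaning is unknown. With the replicate block, Egr1 (adjusted p = 0.055) and Nr4a1 (0.052) lost their calls between vehicle and non-treated. Among the members, Fosb had the fewest counts, 61 to 138 per library, while Jund had the largest standard error in each comparison (0.122 for JGT 500 against vehicle).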
